A study of Mus musculus with 26 samples.

Results

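The genes that lie beside Mettl3 on mouse chromosome 14 were followed: Sall2 on the upstream side of the Mettl3 promoter, and Tox4, Rab2b, Chd8, Supt16, Rpgrip1 and Hnrnpc on the other. They were taken by gene symbol from both deposited expression tables, as 7 of 55487 gene rows in the table of cultured cells and 7 of 53465 in the table of muscle. The question was whether a repressor placed on the Mettl3 promoter also lowered the genes around it, and the muscle, which carried no repressor, served as background.

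The cultured cells were C2C12, a mouse myoblast line that stops dividing and forms myotubes when serum is withdrawn. Knockdown cells (Cas9M3) stably carried a lentiviral construct in which the hUbC promoter drives dCas9-KRAB with puromycin resistance and hU6 drives a guide RNA to the Mettl3 promoter, so Mettl3 was not deleted although the deposited design calls these cells a knockout. Control cells (CTRL) are called wildtype in that design, and the construct they carried, the guide behind these libraries and whether a line was 1 clone are not given in the sources used here. Both were sampled in growth medium (day 0) and on differentiation day 3, with 2 libraries in each of the 4 groups. The muscle was tibialis anterior of young male C57BL/6 J mice, with 2 libraries a day. It was taken on day 0 and on days 1, 3, 5 and 10 after cardiotoxin, a venom toxin that kills muscle fibres and starts regeneration. Day 0 is read here as the uninjured reference, because the study compares injured muscle with its state before injury. The study names saline as the injection control, and whether day 0 muscle received it is not given in the sources used here. The labels do not say whether libraries of a group came from separate cultures or animals, so each p-value measures the spread between these libraries only, which may be technical.

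A nuclease-dead Cas9 binds DNA at the guide's target without cutting it. The KRAB domain fused to it recruits TRIM28 and histone methyltransferases that deposit H3K9me3, a mark of closed chromatin that can extend from the site where KRAB is bound. Mettl3 encodes the catalytic subunit of the complex that writes N6-methyladenosine on RNA.

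In the GRCm38 build Mettl3 lies on the minus strand of chr14:52294841-52305128. Sall2, a zinc-finger transcription factor gene, lies upstream of it on the same strand at chr14:52311172-52328762, with its nearest edge 6044 bp and its farthest annotated start 23.6 kb from the Mettl3 start. Tox4, whose product belongs to a protein phosphatase 1 complex in the nucleus, points towards Mettl3 from the other side (plus strand, chr14:52279146-52296401, start at 26.0 kb). Rab2b, a small GTPase of membrane traffic (minus strand, chr14:52261759-52279545, 25.6 kb), starts beside Tox4 and runs away from it. Chd8, a chromatin remodeller (minus strand, chr14:52198151-52257780), starts at 47.3 kb. Supt16, the large subunit of the histone chaperone FACT (minus strand, chr14:52160414-52197416), starts at 107.7 kb. Rpgrip1, a ciliary protein of photoreceptors (plus strand, chr14:52110704-52163546), starts at 194.4 kb, and Hnrnpc, an RNA-binding protein of the nucleus (minus strand, chr14:52073377-52104028), at 201.1 kb. Sall2 was therefore the only member whose start lies upstream of Mettl3, and the only one with the Mettl3 promoter between it and the other 6.

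The promoters nearest the Mettl3 start are shown. The guide behind these libraries is not given, so their distance from the bound site is not known, and an effect of distance was not tested. Each is the 250 bases before the gene start in RefSeq (GRCm38.p6), written 5′ to 3′ on the strand of the gene, with each CpG in capitals; 8 of 8 genes matched by symbol.

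Mettl3 (minus strand, chr14:52305125-52305374): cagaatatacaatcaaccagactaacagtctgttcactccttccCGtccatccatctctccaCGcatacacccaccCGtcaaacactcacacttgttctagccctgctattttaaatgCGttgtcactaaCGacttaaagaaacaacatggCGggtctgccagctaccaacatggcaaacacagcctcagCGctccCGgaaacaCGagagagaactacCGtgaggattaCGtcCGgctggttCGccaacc

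Sall2, farther start (minus strand, chr14:52328671-52328920): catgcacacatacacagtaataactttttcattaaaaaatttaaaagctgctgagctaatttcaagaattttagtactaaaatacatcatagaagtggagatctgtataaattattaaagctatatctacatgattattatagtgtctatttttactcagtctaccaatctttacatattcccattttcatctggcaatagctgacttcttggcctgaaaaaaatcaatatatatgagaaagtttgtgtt

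Sall2, nearer start (minus strand, chr14:52316324-52316573): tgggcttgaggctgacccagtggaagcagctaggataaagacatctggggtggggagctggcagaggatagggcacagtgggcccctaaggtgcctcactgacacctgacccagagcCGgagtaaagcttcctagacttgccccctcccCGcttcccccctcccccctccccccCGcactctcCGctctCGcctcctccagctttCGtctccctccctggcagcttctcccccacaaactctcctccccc

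Rab2b (minus strand, chr14:52279396-52279645): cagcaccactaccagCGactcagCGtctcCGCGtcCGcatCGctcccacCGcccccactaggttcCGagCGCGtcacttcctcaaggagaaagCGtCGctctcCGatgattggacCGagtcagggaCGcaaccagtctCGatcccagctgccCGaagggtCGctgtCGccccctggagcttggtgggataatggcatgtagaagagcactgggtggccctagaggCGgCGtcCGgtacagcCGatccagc

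Tox4 (plus strand, chr14:52278896-52279145): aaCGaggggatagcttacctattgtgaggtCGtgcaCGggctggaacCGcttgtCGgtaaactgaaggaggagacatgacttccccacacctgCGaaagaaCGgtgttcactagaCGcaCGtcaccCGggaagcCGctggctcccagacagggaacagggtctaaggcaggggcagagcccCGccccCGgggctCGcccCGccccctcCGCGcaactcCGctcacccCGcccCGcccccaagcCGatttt

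The Mettl3 promoter held 13 CpG, Rab2b 23 and Tox4 21, against a median of 6 over the 32851 RefSeq promoters of the same length. The farther Sall2 start held 0 CpG at 28.0% GC and the nearer one, 11199 bp from the Mettl3 start, held 6 at 64.4% GC. Chd8 held 20, Supt16 28, Hnrnpc 17 and Rpgrip1 3. The letters GGGCGG or their reverse complement, found in 32.7% of all promoters, occurred 4 times in Tox4 and 1 time in Rab2b, and in neither Sall2 window nor that of Mettl3. The deposited values are per gene, so the 2 Sall2 starts could not be measured apart.

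The low values of both tables fell on whole multiples of what 1 read is worth, which gave an estimate of 14230000 to 29560000 reads on genes per library in the cell table and 14170000 to 18820000 in the muscle table. Replicate 2 of every cell group carried far more of the ribosomal-RNA-like feature CT010467.1 (32036 to 163098 FPKM) than replicate 1 (1500 to 1883 FPKM). The unit, FPKM, is a fragment count per gene divided by gene length and by a factor for library size, made per the study's methods with the fpkm function of DESeq2. That factor did not follow the reads on genes alone. On 1 kb, 1 read was worth 0.104 FPKM at 14230000 reads in replicate 2 of control cells in growth medium. It was worth 0.0681 FPKM at 15090000 reads in replicate 2 of knockdown cells on day 3. Of the 7 muscle markers, Myod1, Myf5, Des and Acta1 were read in every cell library, the lowest value being Myod1 at 2.17 FPKM. Myog fell to 0.182 FPKM in a knockdown library in growth medium. Ckm was at most 0.0739 FPKM in knockdown cells on day 3, and Myh4 was at most 0.471 FPKM in any library. The fibroblast marker Col1a1 was read as well, at 59.6 to 356 FPKM. The muscle markers moved with the comparison. On day 3 the 7 markers summed to 562 to 622 FPKM in control cells and to 39.1 to 41.7 FPKM in knockdown cells. The 10 proliferation genes summed to 142 to 146 and 71.4 to 72.5 FPKM in the same libraries. In growth medium those sums overlapped, at 33.6 to 151 and 17.1 to 140 FPKM for muscle markers and at 160 to 336 and 222 to 312 FPKM for proliferation genes, in control and knockdown cells. Single genes could still separate there, as Mki67 did at 16.6 to 24.6 FPKM in control and 30.7 to 37.9 FPKM in knockdown cells, and Mcm2 and Mcm3 were likewise higher in both knockdown libraries. The part of these differences in the results below was not tested. The lower muscle markers of knockdown cells on day 3 ran against the study's own assays. Those reported more MyHC protein after knockdown and, on day 3, more fusion and higher RNA of fusion genes by RT-qPCR. Why these libraries differ from those assays was not tested.

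Mettl3 itself checked the labels. It was at 4.70 and 5.65 FPKM in control and 0.331 and 0.118 FPKM in knockdown libraries in growth medium, and at 4.68 and 5.15 against 0.148 and 0.0805 FPKM on day 3. Every knockdown library was far below every control library. Averaged over both stages the log2 fold change was -4.33 (95% interval -5.02 to -3.65, limma adjusted p = 0.00998), the lowest of the 13824 genes tested.

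**Figure D1:**
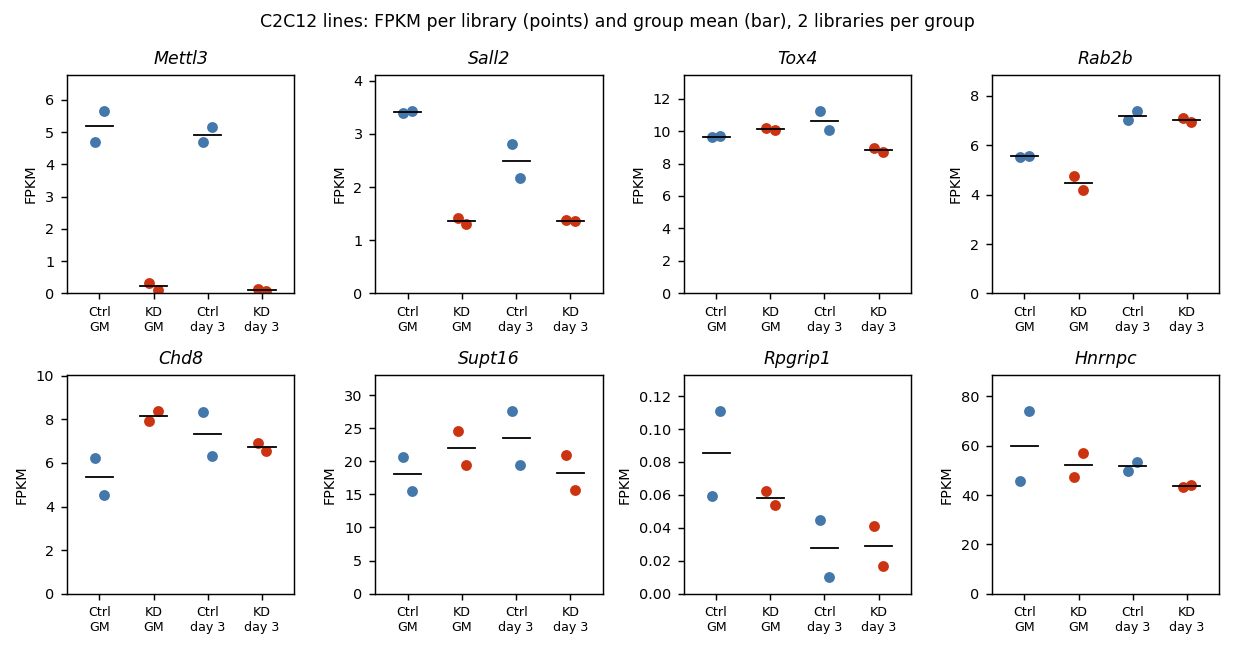
FPKM (vertical axes, each from 0) of Mettl3 and the 7 members in the 8 C2C12 libraries, as points by group with the mean of 2 libraries as a bar; Ctrl is control, KD is knockdown and GM is growth medium. Sall2 sits at 1.30 to 1.42 FPKM in the 4 knockdown libraries and at 2.18 to 3.43 FPKM in the 4 control libraries. No other tested member has all 4 knockdown libraries on one side of all 4 control libraries. Rpgrip1, on its own small axis, was too low to be tested.

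Sall2 was lower wherever Mettl3 was repressed. Knockdown and control cells differ at once in the repressor, in Mettl3 level and in line, and on day 3 in muscle markers. The parts of these in the Sall2 values cannot be told apart and were not tested. In growth medium it stood at 3.39 and 3.43 FPKM in control libraries (3.41 ± 0.027, SD, n = 2) and at 1.42 and 1.30 FPKM in knockdown libraries (1.36 ± 0.081, SD, n = 2). On day 3 it stood at 2.81 and 2.18 FPKM in control (2.50 ± 0.45, SD, n = 2) and at 1.37 and 1.37 FPKM in knockdown libraries (1.37 ± 0.0055, SD, n = 2). All 4 knockdown libraries lay below all 4 control libraries, which held for 1 of the 6 members tested and for 3.15% of the genes tested. The implied reads behind these values were 180 to 586 in control and 109 to 243 in knockdown libraries.

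Averaged over both stages, Sall2 fell by 1.04 on the log2 scale of FPKM + 0.1, or 2.05-fold (SE 0.16, 95% interval -1.42 to -0.66, limma adjusted p = 0.0377). It was the 1 member of 6 tested that was called at an adjusted p no higher than 0.05, where 1.97% of the 13824 genes were called and 0.477% were called lower. The fall was not rare in size: 440 genes, 3.18% of those tested, had as low a log2 fold change or lower. The limma adjusted p of Sall2 was 0.0323 once replicates were paired by their number as a block, and 0.0592, past the threshold, with no filter on low values. The averaged comparison uses the same libraries as those of the single stages. The call was lost when either knockdown library in growth medium (adjusted p = 0.068 and 0.113 without replicates 1 and 2) or any day 3 library (0.186 to 0.239) was left out, although the log2 fold change stayed between -1.13 and -0.95.

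Neither stage alone called Sall2. In growth medium its log2 fold change was -1.27 (95% interval -1.81 to -0.73, limma adjusted p = 0.294), in a comparison that called 0 of 13824 genes (0%), Mettl3 included (adjusted p = 0.188), with 1244 genes and 2 members at an unadjusted p under 0.05. On day 3 it was -0.81 (-1.35 to -0.27, adjusted p = 0.129 in limma), where 1.98% of genes and 0 of 6 members were called and 1 member had an unadjusted p under 0.05. Within each replicate number Sall2 was lower in 4 of 4 knockdown libraries, by log2 differences of -1.20 and -1.33 in growth medium and of -0.98 and -0.64 on day 3. The difference between the stages was 0.46 (-0.31 to 1.22), and that comparison called 0% of genes and 0 members in limma, with 1198 genes and 0 members at an unadjusted p under 0.05. An exact permutation test of 2 libraries against 2 cannot give a p below 0.333.

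Across differentiation Sall2 was lower in control cells on day 3 than in growth medium on average, with a log2 difference of -0.45 whose interval spans 0 (-0.99 to 0.09), and in knockdown cells it stood almost level (0.01, -0.53 to 0.55).

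**Figure D2:**
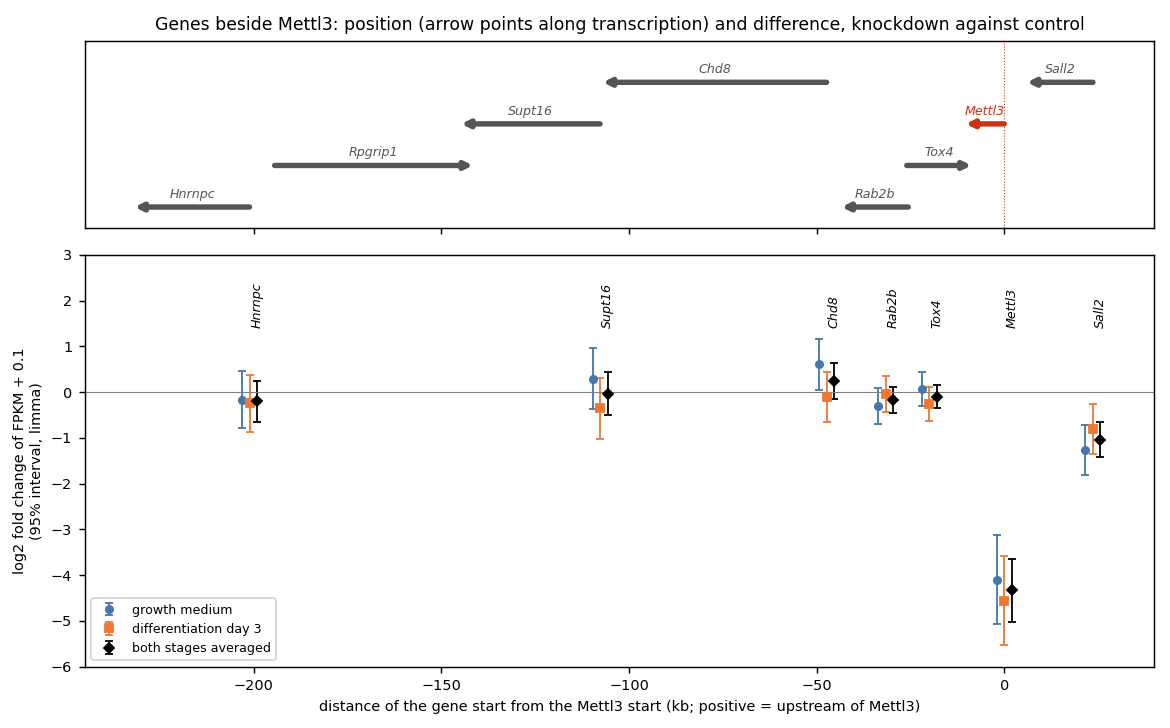
Top, position of each gene in kb from the Mettl3 start, with arrows along the direction of transcription and Mettl3 in red; bottom, log2 fold change of FPKM + 0.1, knockdown against control, with its 95% limma interval, at the start of each gene (the Tox4 and Rab2b points are each shifted sideways for display). Mettl3 lies near -4, Sall2 near -1 on the upstream side, and the intervals averaged over both stages span 0 for Tox4, Rab2b, Chd8, Supt16 and Hnrnpc, while Rpgrip1 was too low to be tested.

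Tox4 and Rab2b, which start 26.0 and 25.6 kb from the Mettl3 start on its other side, farther than either Sall2 start, were called in no knockdown comparison. Tox4 stood at 9.64 and 9.67 FPKM in control and 10.2 and 10.1 FPKM in knockdown libraries in growth medium. On day 3 it stood at 11.2 and 10.1 against 8.95 and 8.72 FPKM. The knockdown libraries were thus the higher ones in growth medium and the lower ones on day 3, without overlap at either stage. Averaged, the Tox4 log2 fold change was -0.10 (95% interval -0.36 to 0.16, limma adjusted p = 0.732).

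Rab2b stood at 5.52 and 5.57 FPKM in control and 4.76 and 4.17 FPKM in knockdown libraries in growth medium, and at 7.02 and 7.39 against 7.12 and 6.95 FPKM on day 3. Only in growth medium did its groups separate, with knockdown lower. Its averaged log2 fold change was -0.17 (95% interval -0.45 to 0.11, limma adjusted p = 0.529). The lower bounds, -0.36 for Tox4 and -0.45 for Rab2b, lay above the upper bound of Sall2, -0.66, though the difference between these genes was not itself tested.

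Chd8 stood at 6.24 and 4.52 FPKM in control and 7.94 and 8.37 FPKM in knockdown libraries in growth medium, and at 8.35 and 6.33 against 6.94 and 6.57 FPKM on day 3. In growth medium both knockdown libraries stood above both control libraries (log2 fold change 0.61, 95% interval 0.05 to 1.16), but the limma adjusted p was 0.526. The groups overlapped on day 3, and the averaged value was 0.25 (-0.14 to 0.64).

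Supt16 stood at 20.6 and 15.5 FPKM in control and 24.6 and 19.4 FPKM in knockdown libraries in growth medium, and at 27.6 and 19.4 against 20.9 and 15.7 FPKM on day 3. Its groups overlapped at both stages, and replicate 1 was the higher in each. Within replicate numbers the knockdown library was the higher in growth medium (log2 differences 0.25 and 0.33) and the lower on day 3 (-0.39 and -0.31). The averaged log2 fold change was -0.03 (95% interval -0.50 to 0.44).

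Hnrnpc, the member with the most RNA per length, stood at 45.8 and 74.0 FPKM in control and 47.4 and 57.0 FPKM in knockdown libraries in growth medium, and at 49.9 and 53.5 against 43.2 and 44.0 FPKM on day 3. The groups separated on day 3 only, with knockdown lower. The averaged log2 fold change was -0.20 (95% interval -0.64 to 0.24).

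Rpgrip1 was too low to be compared in these cells. It was at 0.0595 and 0.111 FPKM in control and 0.0626 and 0.0538 FPKM in knockdown libraries in growth medium, and at 0.0450 and 0.00989 against 0.0413 and 0.0168 FPKM on day 3. These values stood for 2 to 24 reads, and the gene failed the minimum of 0.5 FPKM in 2 libraries, so a difference was not detectable at this depth.

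Both knockdown libraries lay on one side of both control libraries for 4 of the 6 tested members in growth medium, 2 lower and 2 higher, where 29.4% of all genes tested did so. On day 3 this held for 3 of 6, all lower, against 63.5% of all genes. The median log2 fold change of the 6 members was -0.05 in growth medium, -0.25 on day 3 and -0.13 averaged, against -0.01, -0.05 and -0.04 over all genes tested.

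The wider neighbourhood was mostly silent. Of the 157 other genes whose start lies within 1 Mb of the Mettl3 start, 119 were at 0 in every cell library, 72 were T-cell receptor alpha or delta segments and 14 were tested, 8 of them not members. Within 100 kb, 5 of 13 were tested, and these were Sall2, Tox4, Rab2b, Chd8 and the small nucleolar RNA gene Snord8 (averaged log2 fold change 0.68, 95% interval -1.98 to 3.34). No tested gene other than Sall2 lay upstream of Mettl3 in this window.

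Over the 14 tested neighbours the median averaged log2 fold change was -0.02, and Sall2 was the 1 called. On day 3 the 1 called was Gm21718, 993.6 kb away, which was higher in knockdown cells (log2 fold change 4.42, limma adjusted p = 0.0313). Leaving out any 1 of the 4 day 3 libraries left 0 genes called on day 3, so that call was lost each time. In growth medium the lowest p-values in the neighbourhood, after Mettl3 and Sall2, were those of Chd8, Rab2b and Mettl17 (log2 fold change -0.42, 420.3 kb). On day 3 Ndrg2, a stress-responsive gene at 391 kb, had a log2 fold change of 0.84 (adjusted p = 0.457), and averaged over both stages one of 0.68 (adjusted p = 0.37).

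Several members share exon sequence with a neighbour, and the strand setting of the read counting is not given. The 3′ ends of Tox4 and Mettl3, on opposite strands, share 933 bp of exon, Tox4 and Rab2b overlap over 195 bp at their starts, and Supt16 and Rpgrip1 overlap over 1057 bp. Chd8 shares 953 bp with Gm26590 and Rab2b 2469 bp with Gm43766. Without strand, reads from these stretches cannot be told apart, so values of these members are uncertain to that extent. Sall2 and Hnrnpc overlap no exon of another gene.

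Among relatives and partners of the members, 0 of the 31 tested were called by limma in growth medium, on day 3 or averaged. Of all genes 0%, 1.98% and 1.97% were called there, so 0 of 31 is near the share of all genes. At an unadjusted limma p under 0.05 stood 2, 4 and 4 of them, against 9%, 17.6% and 17.5% of all genes. The 31 were 5 of the TOX4 phosphatase complex and TOX paralogs, the FACT subunit Ssrp1, 7 of the CHD family, 11 hnRNPs, 4 Rab2 relatives and 3 RPGRIP1 partners. Ssrp1, which pairs with Supt16 in FACT, had a day 3 log2 fold change of -0.46 (SE 0.20, limma adjusted p = 0.309). The Sall2 paralogs Sall1, Sall3 and Sall4 were too low to be tested in these cells. Of the marker lists, 2 of 6 tested muscle markers were called on day 3, Ckm, the muscle creatine kinase (log2 fold change -5.14), and Myod1, a myogenic transcription factor (-2.80), and 1 of 10 proliferation genes, Mcm2, of the replicative helicase (-1.08), all lower in knockdown cells. Of all genes 1.98% were called on day 3. The marker calls, too, were lost without any 1 day 3 library.

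Differentiation was compared within each line. Between growth medium and day 3, 1.14% of genes and 0 of 6 members were called in control cells, with 2520 genes and 0 members at an unadjusted p under 0.05 in limma. In knockdown cells 0.0289% of genes and 0 members were called, with 1748 genes and 1 member at an unadjusted p under 0.05. That member was Rab2b, with a higher mean on day 3 (log2 fold change 0.65, 95% interval 0.25 to 1.04, limma adjusted p = 0.177). In control cells the Rab2b value was 0.37 (-0.03 to 0.77).

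The muscle libraries, with no repressor, are bulk tissue, in which fewer cells of a type and less RNA per cell cannot be told apart. Although the mice are described as male, 5 of the 10 libraries carried Xist, the X-inactivation RNA of female cells, at 5.77 to 10.0 FPKM with the Y-linked Ddx3y at no more than 0.101 FPKM, and the other 5 carried Ddx3y at 6.10 to 11.4 FPKM with Xist at no more than 0.152 FPKM. Those with Xist were both libraries of day 0, both of day 10 and replicate 2 of day 3. Day 0 therefore differs from days 1 and 5 in this respect as well as in time, and for those days the causes cannot be told apart. A term for Xist was added after the values were seen. Only day 3 holds both kinds of library, 1 of each, so the term is the difference between its replicates. With the term, day 3 fold changes equal those without replicate 1 of day 3, and those of days 1 and 5 are shifted by that 1 difference. The fold changes of day 10 are not shifted, because its libraries carry Xist as those of day 0 do. With it, 5855 of 16753 genes were called on day 3 and 0 on days 1, 5 and 10, and of the 6 member calls below that of Sall2 on day 3 was kept.

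Over the 5 days, 3 of 7 members (Sall2, Rab2b and Supt16) differed in limma's F test, where 43% of the 16753 genes did. Against day 0, 4 of 7 members were called on day 3, all higher, where 48.8% of genes were called and 24.5% were called higher. On day 5 it was 2 of 7, both higher, where 25.5% of genes were called and 12.9% higher. On day 1 it was 0 of 7 (6% of genes, limma), with 1 member and 4493 genes at an unadjusted p under 0.05, and on day 10 it was 0 of 7 (0.00597%), with 1 member and 1697 genes. Counting calls in either direction, the members' shares on days 3 and 5 were near those of all genes. Counting higher calls only, they were above them, with 7 members in all. Sall2 is in each of these counts and passed the minimum of 0.5 FPKM through days 3, 5 and 10, where it was high. The counts therefore rest in part on that filter, and no conclusion about the members is drawn from them. The days share the same day 0 libraries.

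**Figure D3:**
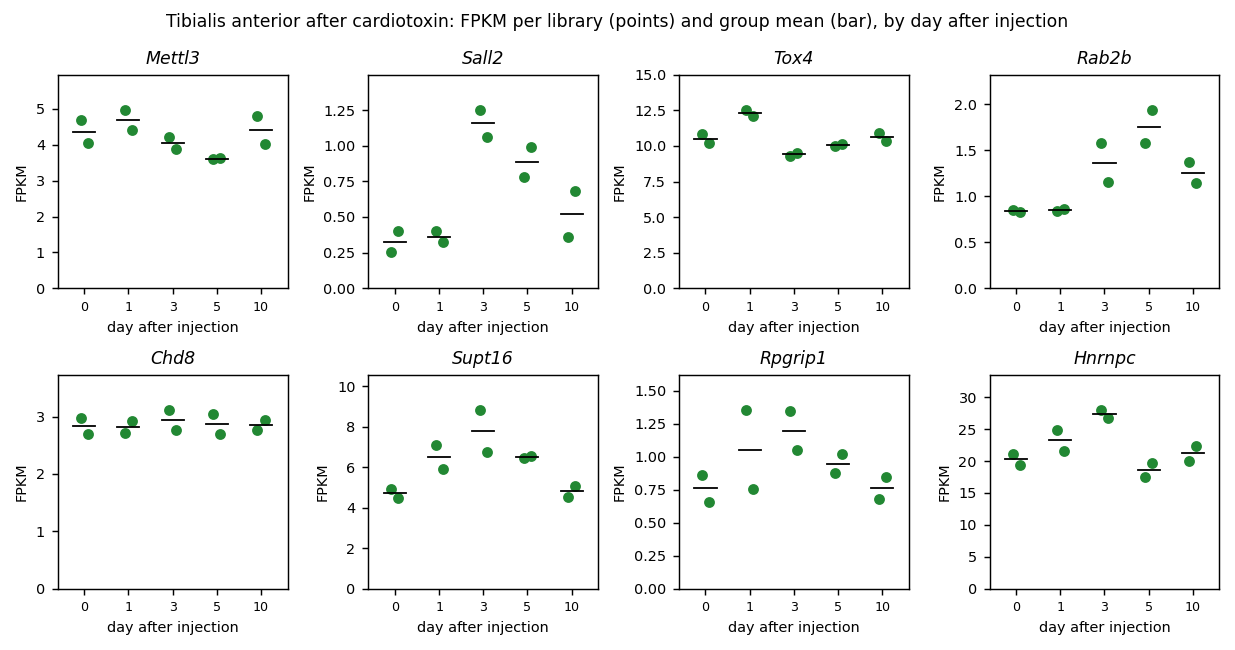
FPKM (vertical axes, each from 0) of Mettl3 and the 7 members in the 10 tibialis anterior libraries, as points by day after cardiotoxin (day 0 is the uninjured reference) with the mean of 2 libraries as a bar. Sall2 and Rab2b stand highest on days 3 and 5, Supt16 and Hnrnpc on day 3, and Chd8 is nearly level at 2.70 to 3.11 FPKM.

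Sall2 had the largest ratio of highest to lowest day mean among the members, 3.56. It stood at 0.251 and 0.400 FPKM on day 0, 0.398 and 0.322 on day 1, 1.25 and 1.06 on day 3, 0.779 and 0.989 on day 5 and 0.361 and 0.680 FPKM after 10 days. Days 3 and 5 lay above all other libraries, days 0, 1 and 10 overlapped, and behind the values stood 17 to 134 reads. On day 3 the log2 fold change was 1.58 (95% interval 0.79 to 2.38, limma adjusted p = 0.00713) and on day 5 it was 1.22 (0.43 to 2.02, adjusted p = 0.0373). Sall2 passed the minimum of 0.5 FPKM through days 3, 5 and 10, where it was high, so its adjusted p-values with the filter are a description only. With no such filter the adjusted p was 0.016 on day 3 and 0.0723, past the threshold, on day 5. Without replicate 1 of day 3, which leaves only libraries with Xist in that comparison, the day 3 value was 1.47 (adjusted p = 0.0455). The day 3 call held without each single library. The day 5 call was lost without replicate 1 of day 0 (adjusted p = 0.197), either library of day 3 (0.0632 and 0.0627) or either of day 5 (0.0941 and 0.185). The call over all days was lost without replicate 1 of day 0, either library of day 3 or replicate 2 of day 5 (0.0527 to 0.0934).

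Rab2b stood at 0.848 and 0.828 FPKM on day 0, 0.839 and 0.859 on day 1, 1.58 and 1.15 on day 3, 1.58 and 1.94 on day 5, then 1.37 and 1.14 on day 10. Days 0 and 1 were the low ones and did not overlap with later days. The day 5 log2 fold change was 0.98 (95% interval 0.48 to 1.48, limma adjusted p = 0.0202). The day 3 value was 0.63 (adjusted p = 0.0431), and its call was lost when replicate numbers entered as a block (0.0518) and with no filter on low values (0.0819). Leaving out either library of day 0, 1 or 5, replicate 1 of day 3 or replicate 1 of day 10 also ended the day 3 call (adjusted p = 0.0501 to 0.232). The day 5 call was lost without either library of day 0 or of day 5 (0.0548 to 0.132), and the call over all days without either of these or replicate 1 of day 1 or 3 (0.0503 to 0.0993).

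Supt16 stood at 4.91 and 4.49 FPKM on day 0, 7.07 and 5.89 on day 1, 8.80 and 6.77 on day 3, 6.43 and 6.55 on day 5, then 4.54 and 5.07 on day 10. Days 0 and 10 were the low ones. On day 3 the log2 fold change was 0.71 (95% interval 0.32 to 1.10, limma adjusted p = 0.0105). That call was lost without replicate 2 of day 0 (0.0528) or replicate 1 of day 3 (0.0681), and the call over all days without either library of day 0, 5 or 10 or replicate 1 of day 3 (0.0545 to 0.0904).

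Hnrnpc stood at 21.2 and 19.4 FPKM on day 0, 24.9 and 21.6 on day 1, 28.0 and 26.7 on day 3, 17.5 and 19.7 on day 5, then 20.1 and 22.4 on day 10. Day 3 lay above every other day. The day 3 log2 fold change was 0.43 (95% interval 0.12 to 0.73, limma adjusted p = 0.0297). The call was lost without any 1 of the libraries of day 0 or day 3 (0.0687 to 0.127). Over all days Hnrnpc had an adjusted p of 0.0557, which became 0.0391 without replicate 2 of day 1.

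Tox4, Chd8, Rpgrip1 and Mettl3 passed no test in muscle. Tox4 ranged from 9.31 FPKM on day 3 to 12.5 FPKM on day 1, where both day 1 libraries (12.5 and 12.1) were above all others. Chd8 had an F-test adjusted p of 0.995 in limma. Rpgrip1, nearly silent in the cells, stood at 0.859 and 0.659 FPKM on day 0, 1.35 and 0.752 on day 1, 1.35 and 1.05 on day 3, then 0.874 and 1.02 on day 5, then 0.679 and 0.844 on day 10, with day 3 above days 0, 5 and 10 and overlapping with day 1. Mettl3 ranged from 3.59 to 4.97 FPKM, with its lowest mean on day 5.

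Marker RNA of several cell types moved on the same days. The 5 macrophage and leukocyte markers summed to 38.9 to 81.4 FPKM on day 0, 1336 to 1367 on day 3 and 384 to 425 on day 5, and 5 of 5 were called higher on day 3. The 7 muscle markers summed to 30524 to 31172 FPKM on day 0 and 9417 to 9778 on day 3. That sum was mostly Acta1, Ckm and Myh4, and the list split, with 3 of 7 called lower and 3 higher on day 3. Acta1 stood at 17173 to 19800 FPKM on day 0 and 5994 to 6530 on day 3, Myog at 7.73 to 11.0 and 234 to 262. The 3 fibroblast markers summed to 32.5 to 79.5 FPKM on day 0 and 379 to 404 on day 3, and 2 of 3 were called higher on day 3. Most of that day 3 sum was Col1a1, at 350 to 354 FPKM. On day 3, 7 of 10 proliferation genes and the satellite cell marker Pax7 were called higher. Of the 3 endothelial markers 1 was called lower, and of 2 tested neutrophil markers 0 were called. Of all genes 48.8% were called on day 3. The part of cell makeup in the members' values was not tested.

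In muscle 15 of the 29 tested partners and relatives were called on day 3, a share near the 48.8% of all genes. Both counts include Sall4, which passed the minimum through day 0, where it was high. Ssrp1 was higher, as Supt16 was (log2 fold change 0.48, limma adjusted p = 0.0327). Of 11 tested hnRNPs 5 were called higher and 0 lower, where 48.8% of all genes were called and 24.5% called higher. Hnrnpf (0.85) and Hnrnpk (0.67) were the largest, and the median of the hnRNPs was 0.38 against 0.01 over all genes. On day 5, 3 hnRNPs were called lower and 0 higher, where 25.5% of all genes were called and 2098 of 16753 were called lower. The next values are again those of day 3. Rab2a, the close paralog of Rab2b, was lower (-0.85, adjusted p = 0.0102), and so was Rab4a (-0.81), opposite in sign to Rab2b. The 3 Sall2 paralogs together summed to 0.582 to 0.885 FPKM on day 0 and 0.0804 to 0.175 FPKM on day 3. Of these Sall4 was above the minimum in both day 0 libraries and otherwise in 1 of day 10. Its call among the 15 therefore rests on a filter passed where it was high, and no p-value is given for it. Of the CHD family, Chd3 (3.01) and Chd4 (0.84) were higher and Chd7 (-0.74) lower, and of the TOX4 list Tox2 (2.66) was higher and Ppp1cb (-1.54) and Ppp1cc (-0.56) lower. None of the 3 RPGRIP1 partners was tested.

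As a description over the 10 muscle libraries, which share their days and cell makeup, the gene whose log2 levels followed each member most closely among 12285 genes was Nt5c3b for Sall2 (Pearson r = 0.986), Rce1 for Rpgrip1 (0.983), Brd8 for Supt16 (0.981), Fkbp2 for Hnrnpc (0.972), Arih1 for Tox4 (0.961), Gm11788 for Rab2b (0.934) and Donson for Chd8 (0.815).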

How the data were processed

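RNA-seq libraries of C2C12 cells (8) and of tibialis anterior muscle (10) were analysed, and the 8 overexpression libraries of the 26 samples were not analysed here. Per the labels, RNA was isolated with TRIzol and libraries were made with a SMARTER mRNA-Seq kit. According to the study's methods the authors aligned reads with HISAT2 and counted them with featureCounts, and the build in the submitters' processing notes is GRCm38 (mm10). The deposited values are FPKM, fragments scaled to gene length and library size, made by the authors per gene and library, with no counts beside them. Tool versions and the strand setting are not given in the sources used here.

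The study's methods test counts. Because FPKM are not counts, limma 3.58.1 (R 4.3.3; lmFit, eBayes with a mean-variance trend) was fitted here to log2(FPKM + 0.1) over all groups of a table, one mean per group. The genes that reached 0.5 FPKM in 2 or more libraries (13824 in cells, 16753 in muscle) entered the tests, which were two-sided, with Benjamini-Hochberg adjustment over all of them and a call at an adjusted p of at most 0.05. Fold changes are on the FPKM + 0.1 scale, which understates low genes. The fit was tested on simulated data. The members and gene lists were chosen with earlier results of these data known. The rule for named genes takes all 7 members and Mettl3, up to 5 genes per knockdown comparison with the lowest p within 1 Mb of the Mettl3 start, called genes of the lists with up to 4 others each, and 1 most similar gene per member. Group names come from the sample titles.

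Depth was recovered from the low values, of which 98.7% to 98.9% in cells and 97.0% to 97.7% in muscle (up to 20 reads) lay within 0.05 reads of a whole multiple of 1 read. On 1 kb of exon, 1 read was worth at most 0.104 FPKM. Gene positions and exon lengths are those of GENCODE M21 (GRCm38), promoters those of RefSeq.

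Replicate numbers in the titles were checked as pairs: differences between replicates 1 and 2 correlated between groups at 0.278 to 0.68 in the cell table (6 of 6 above 0.1), so the numbers pair those libraries, and at -0.0187 to 0.211 in muscle, where they do not. Alternatives were the pseudocount, the filter, the scaling, the replicate block, fits of only the groups compared, the study's thresholds and leaving out each library, plus a block with quantile normalization and a term for Xist (above 1 FPKM), the last pair chosen after seeing the data. Python 3.11.15 and matplotlib 3.10.9 drew the figures.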

Additional observations from a re-analysis of the deposited data

How the results depend on the processing

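Across the knockdown the count of called members was 1 averaged over both stages and 0 in the other comparisons of the cell table. The averaged count became 0 with no filter on low values (Sall2 adjusted p = 0.0592, with more genes tested) and 0 under the study's thresholds, which ask for a log2 fold change of 2 and which no member reached, and ranged from 0 to 1 when a library was left out. Mettl3, too, lost its averaged call without any 1 of the 4 day 3 libraries (adjusted p = 0.0955 to 0.148), at log2 fold changes of -4.45 to -4.22. Each other count of 0 was 0 under every setting. The replicate block raised the calls over all genes from 274 to 505 on day 3, from 272 to 473 averaged, from 158 to 411 in control differentiation and from 4 to 9 in knockdown differentiation, and changed no member's call in this table. Counts over all genes swung more when a library was left out: they were 0 without any 1 day 3 library, and 878 on day 3, 1489 averaged and 3684 in control differentiation without replicate 1 of the control cells in growth medium, where growth medium itself went from 0 to 24. In muscle, where the numbers do not pair the libraries, the replicate block changed 1 member call, that of Rab2b on day 3.

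In muscle the 3 members called over all days became 1 with no filter and 1 with the Xist term, and 0 to 4 when a library was left out. The 6 calls against day 0 became 3 with quantile normalization, 3 with only the groups compared, 0 under the study's thresholds, 1 with the Xist term, and 2 to 6 when a library was left out. With no filter 4 of the 6 were kept, Rab2b on day 3 (adjusted p = 0.0819) and Sall2 on day 5 (0.0723) being lost. Rab2b and Sall2 on day 5 and Rab2b on day 3 were the calls lost under quantile normalization, which moved the median of all genes on day 3 from 0.01 to -0.12. In these cases the cause was not tested. Called differences reversed under no setting. The 2 libraries a group and 17 to 134 Sall2 reads in muscle limit what small differences could be seen.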
